A study of Mus musculus with 12 samples.

Results

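The genes described here carry pyruvate into the tricarboxylic acid (TCA) cycle and through it. They are 34 of the 27179 genes in the deposited table, chosen by their known place in the pathway: 3 genes of pyruvate entry, 5 of the pyruvate dehydrogenase complex, 6 of its regulators, 16 of the TCA cycle and 4 of the malate-aspartate shuttle. RNA was measured in heart tissue of 2 mouse substrains, Balb/cJ and Balb/cByJ, and the series' title gives the latter as lacking a functional Acads (∆ACADS), the gene of short-chain acyl-CoA dehydrogenase. Hearts were taken 1 week after a sham operation or after transverse aortic constriction (TAC), a band around the aortic arch that raises the pressure against which the heart pumps. The diet was the same in all groups (10 kcal% fat) and began 4 days ahead of the operation. Each of the 4 groups (sham Balb/cJ, TAC Balb/cJ, sham Balb/cByJ and TAC Balb/cByJ) held 3 libraries. Age, sex and whether a library is a single heart are not stated in the labels, so a p-value reflects spread among libraries that may be technical.

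As background, glycolysis ends in pyruvate, which the mitochondrial pyruvate carrier brings into the matrix. Pyruvate dehydrogenase turns it into acetyl-CoA, which citrate synthase passes into the cycle. Dedicated kinases (Pdk genes) switch the complex off by phosphorylation, and phosphatases (Pdp genes) switch it on, which sets how far the heart burns carbohydrate in place of fatty acids. The adult heart depends on these mitochondrial pathways for most of its energy, and the malate-aspartate shuttle lets it oxidise the NADH made in the cytosol.

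Because many members were lower together after TAC, the promoters of the 8 genes that were lower after TAC in both strains, and of Pdk3, which was higher in both, are shown. Each sequence is the run of 150 bases that ends just before the RefSeq start of the gene, on the gene's strand, from build GRCm38.p6, the assembly of the deposited mm10 coordinates. Capitals mark matches on either strand to the GC box, spelled GGGCGG, to the box named for its letters CCAAT, and to the E-box, spelled CACGTG. The TATA box, spelled TATAAA, was searched as well.
Dlst (chr12:85110683-85110832, plus strand): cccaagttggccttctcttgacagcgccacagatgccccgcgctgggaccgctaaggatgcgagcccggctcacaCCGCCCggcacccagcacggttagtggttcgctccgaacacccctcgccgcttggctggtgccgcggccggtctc
Fh1 (chr1:175625636-175625785, minus strand): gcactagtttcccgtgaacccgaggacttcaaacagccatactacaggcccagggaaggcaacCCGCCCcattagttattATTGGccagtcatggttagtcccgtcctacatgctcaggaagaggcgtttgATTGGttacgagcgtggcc
Idh3b (chr2:130284452-130284601, minus strand): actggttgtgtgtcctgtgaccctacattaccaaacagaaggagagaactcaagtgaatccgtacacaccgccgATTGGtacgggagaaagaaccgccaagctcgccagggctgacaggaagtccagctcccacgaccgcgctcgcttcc
Pdhx (chr2:103073514-103073663, minus strand): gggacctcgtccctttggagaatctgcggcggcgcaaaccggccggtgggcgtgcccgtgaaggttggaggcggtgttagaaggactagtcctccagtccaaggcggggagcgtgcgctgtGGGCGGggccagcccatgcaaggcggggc
Pdk2 (chr11:95041372-95041521, minus strand): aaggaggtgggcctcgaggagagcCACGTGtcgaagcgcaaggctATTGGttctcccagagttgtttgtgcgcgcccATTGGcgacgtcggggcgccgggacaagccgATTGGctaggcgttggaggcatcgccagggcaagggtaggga
Slc25a11 (chr11:70647040-70647189, minus strand): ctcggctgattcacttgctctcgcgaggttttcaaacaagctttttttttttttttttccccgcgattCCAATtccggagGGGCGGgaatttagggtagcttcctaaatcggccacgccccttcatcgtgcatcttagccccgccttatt
Sucla2 (chr14:73552636-73552785, plus strand): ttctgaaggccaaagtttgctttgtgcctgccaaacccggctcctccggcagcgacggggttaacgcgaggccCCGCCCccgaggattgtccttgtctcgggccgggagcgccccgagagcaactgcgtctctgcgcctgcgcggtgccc
Suclg2 (chr6:95718847-95718996, minus strand): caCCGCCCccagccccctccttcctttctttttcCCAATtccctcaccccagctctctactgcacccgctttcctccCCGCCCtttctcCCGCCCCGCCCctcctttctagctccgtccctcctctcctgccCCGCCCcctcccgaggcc
Pdk3 (chrX:93832151-93832300, minus strand): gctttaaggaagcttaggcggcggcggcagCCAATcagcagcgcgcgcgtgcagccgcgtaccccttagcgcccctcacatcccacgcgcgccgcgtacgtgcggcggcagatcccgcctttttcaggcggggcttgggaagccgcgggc

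RefSeq starts were at hand for 31 of the 34 members (Sdhc, Pdp1 and Idh3a had none). A CCAAT box lay in the 150 bases of 17 of these 31 genes (54.8%), against 31.2% of 10582 tested genes and 27.7% of 27025 genes with a listed promoter. A GC box lay in 16 (51.6%, against 57.4% of tested and 31.3% of all), and a TATA box in 1, Got2 (3.23%, against 4.43% and 8.89%). The E-box lay in Ogdh and Pdk2 (6.45%, against 7.12% and 4.92%). The median GC content was 61.3% in the members and 62.7% in tested genes. In Pdk2 the sequence held CCAAT boxes and an E-box, in Pdk3 a CCAAT box and no GC box. A CCAAT box overlapped no GC box in the sequences shown, and a match is a string of letters, not a measured binding site.

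Sums of the normalized values ran from 25161466 to 34157613 per library, and within-group correlations across genes from 0.974 to 0.988. Mitochondrially encoded transcripts took 10.8 to 17.2% of a sum. The heart markers Myh6, Actc1, Tnnt2, Tnni3, Myl2, Myl3, Ryr2 and Pln were present in all libraries. The library labelled TAC Balb/cByJ 6 went against its strain label at Zhx2, a gene known to be low in the BALB/cJ substrain: it read 48, as against 728 to 838 in the other Balb/cByJ libraries and 21 to 47 in Balb/cJ. The main counts that use it are therefore also given without it. No TAC column is tied to a named sample, because TAC columns carry the numbers 4 to 6 and the sample titles 1 to 3, so TAC libraries are named here by their column. Library TAC Balb/cJ 6 stood apart at the pathway itself, with the lowest value of the 12 libraries in 23 of the 34 members and the lowest of its group in 30. TAC Balb/cJ 4 was the highest of its group in 29 members. Its summed member value (711315) lay above that of sham Balb/cJ 1 (691509). Sham Balb/cJ 1 was the lowest of its group in 28 members and sham Balb/cByJ 2 in 32. The members' median coefficient of variation was 13.6% in sham Balb/cJ, 17.3% in TAC Balb/cJ, 8.8% in sham Balb/cByJ and 5.81% in TAC Balb/cByJ, so the spread was wider in Balb/cJ.

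All 34 members were expressed, and all passed the filter on low values (a mean of at least 10). Levels of different genes are compared here only as the mean normalized value over the 12 libraries per kilobase (1000 bases) of exon. The highest were the malate dehydrogenases Mdh1 (39459.5) and Mdh2 (32476), followed by Idh2 (29009), Sdhb (26904) and citrate synthase, Cs (15847). The lowest were the regulators Pdk3 (58.6), Pdp2 (89.5), Pdp1 (233) and Pdpr (309.6), and pyruvate carboxylase, Pcx (352). Within the pyruvate dehydrogenase complex the catalytic subunits Pdha1 (11663) and Pdhb (12384) were nearly level, and Dld (4587), Dlat (2923) and Pdhx (2009) lay below them. Among the 3 member kinases the order was Pdk2 (6086), Pdk1 (1555) and Pdk3. Exon lengths are sums over annotated exons, so a level per kilobase is an approximation where transcripts differ.

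**Figure D1:**
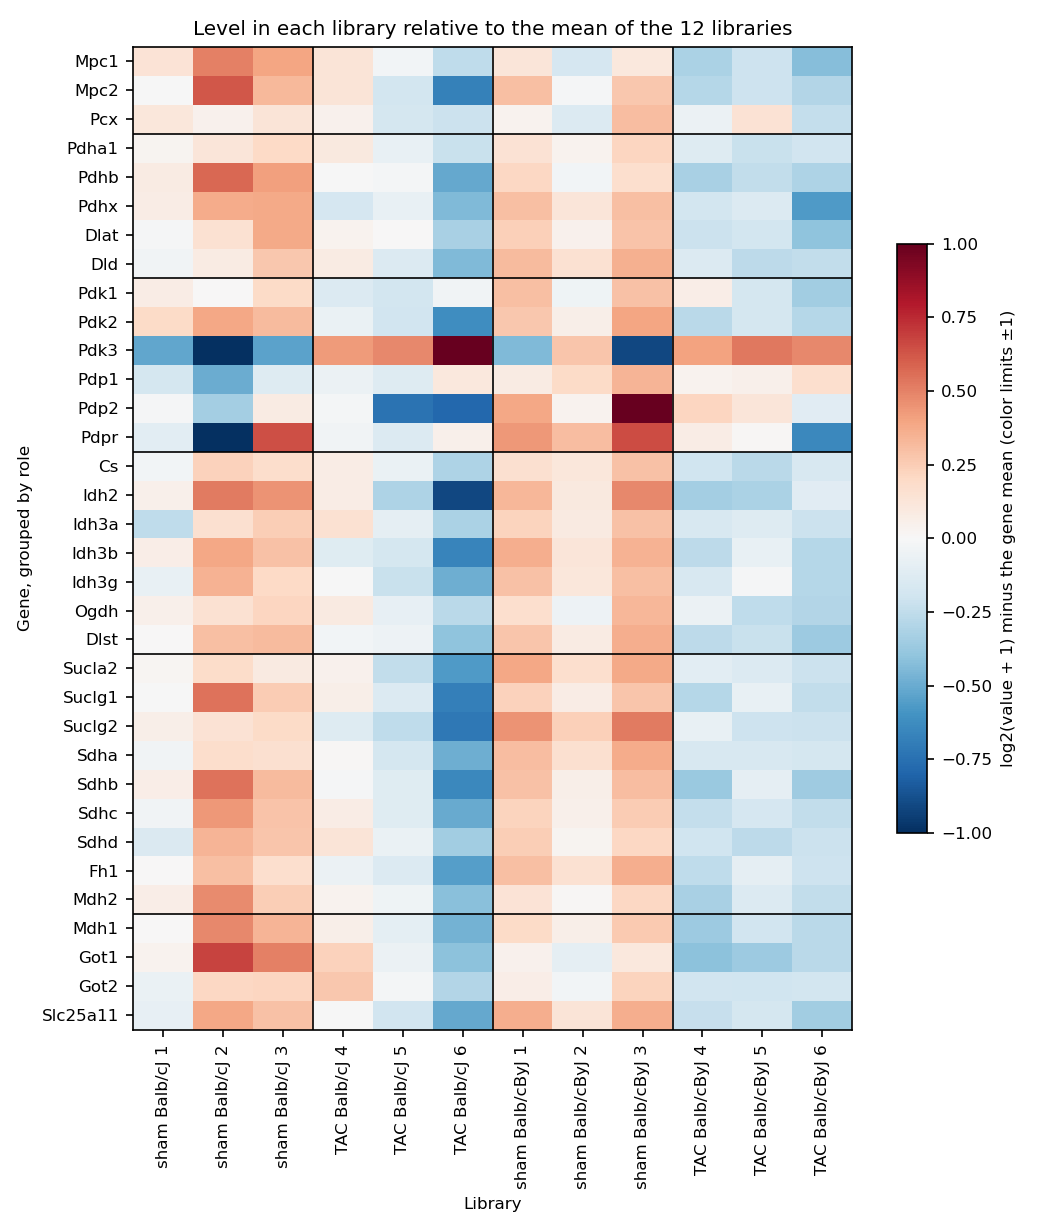
Level of each of the 34 members (rows, grouped by role) in each of the 12 libraries (columns), as log2(value + 1) minus the gene's mean over the libraries. Most rows are higher on average in sham than in TAC libraries, Pdk3 runs the other way, and TAC Balb/cJ 6 is the lowest library for 23 members. The split is not clean in Balb/cJ. Over the 28 members other than kinases, phosphatases and Pdpr, the mean deviation was 0.045 in TAC Balb/cJ 4 and 0.0037 in sham Balb/cJ 1.

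The study asks how pressure load changes heart gene expression in each substrain. In Balb/cJ, 19 of the 34 members fell after TAC and 1, Pdk3, rose; across all 14038 genes tested 16.2% were lower and 15.3% higher (31.5% in either direction). In Balb/cByJ, 12 members fell and Pdk3 rose, where 4.76% of all genes were lower and 7.81% higher (12.6% in either direction). The median log2 difference of the members was -0.40 in Balb/cJ and -0.42 in Balb/cByJ, beside a median of about 0 over all genes tested (-7.81e-05 and -0.0041). Differences here are of log2(value + 1), given ± SE with n = 3 libraries per group, and a call is an adjusted p under 0.1 over all genes. In bulk tissue, fewer cells of a type and less RNA per cell cannot be told apart.

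8 members fell in both strains: Pdhx, Pdk2, Idh3b, Dlst, Sucla2, Suclg2, Fh1 and Slc25a11. The share of all genes called lower in both strains was not counted, so this overlap has no background beside it. 11 fell with a call in Balb/cJ alone (Mpc1, Mpc2, Pdhb, Idh2, Idh3g, Suclg1, Sdhb, Sdhc, Mdh2, Mdh1 and Got1) and 4 with a call in Balb/cByJ alone (Dlat, Dld, Cs and Sdha). A call in a single strain does not show that the strains differ, and the strain by surgery interaction passed for 0 members by limma (1 at an unadjusted p under 0.05). Of the members, 10 passed in neither strain: Pcx, Pdha1, Pdk1, Pdp1, Pdp2, Pdpr, Idh3a, Ogdh, Sdhd and Got2.

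TAC and sham libraries separated at more members in Balb/cByJ than in Balb/cJ, a difference that was not tested. In Balb/cByJ all 3 TAC libraries lay below all 3 sham libraries at 29 of 34 members (18.8% of all genes tested), and in Balb/cJ at 11 (18.1%). TAC libraries lay above the sham libraries at 1 member in Balb/cByJ (16.4% of all genes) and 2 in Balb/cJ (18.8%). The fit shares a single estimate of spread over the 4 groups. With only the groups compared in the fit, 28 members fell in Balb/cByJ, where 9.99% of all genes did, and 5 in Balb/cJ, where 9.2% did. Leaving out a library moved the count of calls for all genes as well as for the members. The count of members called in Balb/cJ was 5 without TAC Balb/cJ 6 (15.4% of all genes called), 5 without sham Balb/cJ 2 (15.6%) and 6 without sham Balb/cJ 3 (18.6%). In Balb/cByJ it was 0 by limma without sham Balb/cByJ 1 (15 at an unadjusted p under 0.05), where 0.0427% of all genes were called, and 0 without sham Balb/cByJ 3 (12 unadjusted), where 0.534% were. It was 2 without TAC Balb/cByJ 4 (3.67% of all genes) and 1 without TAC Balb/cByJ 5 (3.34%). It was 20 without sham Balb/cJ 1 (14.8%) and 27 without TAC Balb/cJ 6 (20.1%).

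Without TAC Balb/cByJ 6, the library whose Zhx2 value went against its label, 1 member (Suclg2) was called in Balb/cByJ, with 18 at an unadjusted p under 0.05 and 4.89% of all genes called. Suclg2 was then also the 1 member lower in both strains. TAC lay below sham without overlap at 30 members (24.5% of all genes) and above it at 1 (22.8%). The interaction passed for 0 members by limma (1 unadjusted). The members' median without TAC Balb/cByJ 6 was -0.40 in Balb/cByJ, and without TAC Balb/cJ 6 it was -0.25 in Balb/cJ.

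How libraries are scaled moves all genes together. When every library was scaled to an equal total, the median of all genes moved to 0.21 in Balb/cJ and 0.15 in Balb/cByJ, and the members' medians to -0.18 and -0.27. Relative to the median of all genes the members stood at -0.39 and -0.42 under that scaling, and at -0.40 and -0.42 as deposited. Calls under that scaling were 8 lower and 2 higher (Pdk3 and Pdp1) in Balb/cJ, and 11 lower and 1 higher in Balb/cByJ. Of all genes, 6.35% were lower and 28.0% higher in Balb/cJ under that scaling, and 1.62% and 11.6% in Balb/cByJ.

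**Figure D2:**
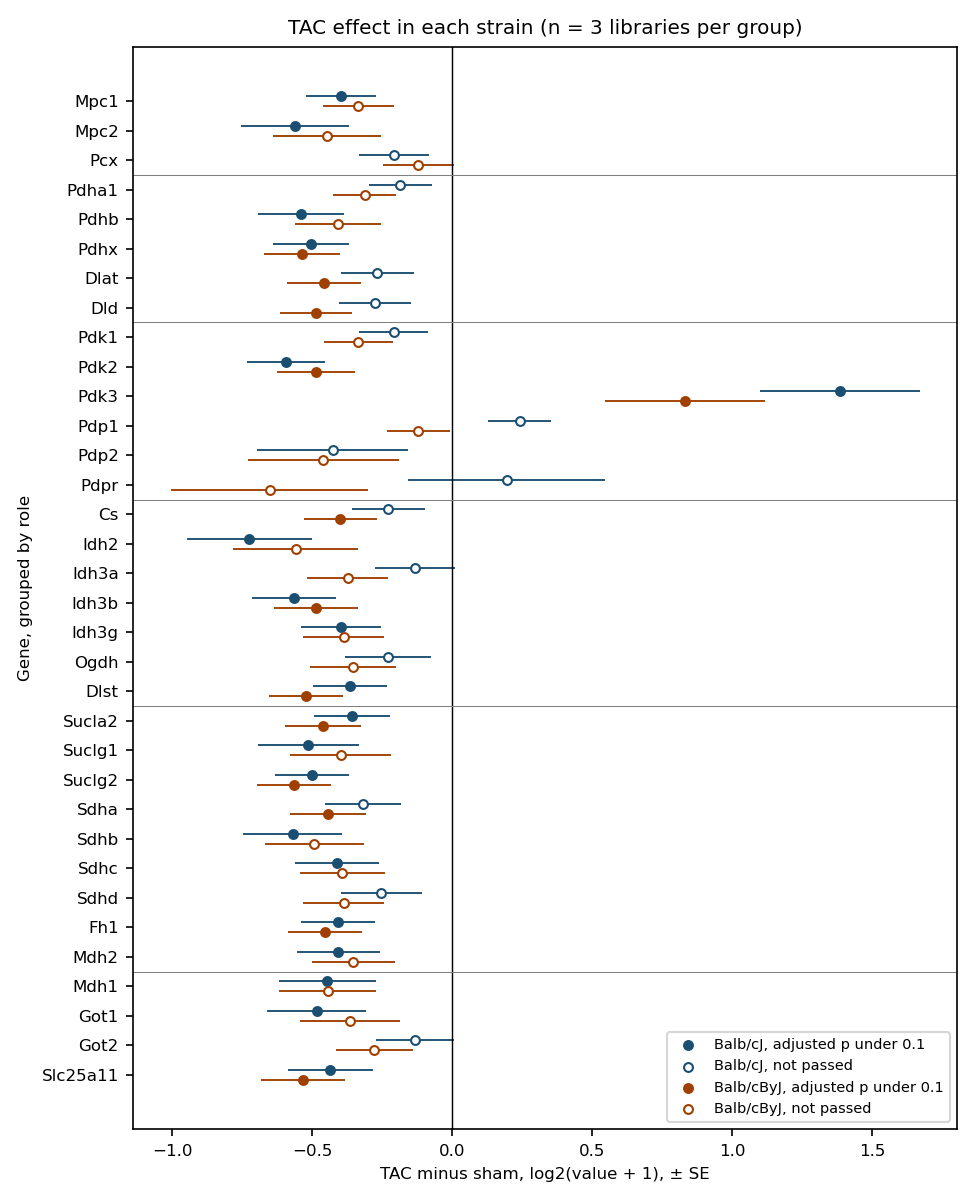
Difference of TAC from sham on the log2(value + 1) scale for each member in Balb/cJ (blue) and Balb/cByJ (brown), with SE bars and n = 3 libraries per group; filled points passed at an adjusted p under 0.1. Nearly all members lie left of 0 in both strains, and Pdk3 lies at 1.38 and 0.83.

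Pyruvate entry comes first. In every sequence of values below, sham libraries are given in the order 1 to 3 and TAC libraries in the order 4 to 6. Mpc1 and Mpc2 form the mitochondrial pyruvate carrier. Mpc1 was at 4728, 6101 and 5640 in sham Balb/cJ, 4694, 4216 and 3601 in TAC Balb/cJ, 4666, 3818 and 4612 in sham Balb/cByJ and 3437, 3723 and 3198 in TAC Balb/cByJ. Its TAC values lay below its sham values within each strain, and Balb/cByJ lay below Balb/cJ among the sham hearts. Mpc1 fell in Balb/cJ (-0.40 ± 0.13, adjusted p = 0.0438), and its difference in Balb/cByJ was -0.34 ± 0.13, adjusted p = 0.122. Mpc2 was at 9615, 14829 and 12071 in sham Balb/cJ, 10545, 8473 and 6006 in TAC Balb/cJ, 11820, 9546 and 11622 in sham Balb/cByJ and 7909, 8356 and 7850 in TAC Balb/cByJ. Its groups were separate in Balb/cByJ and overlapped in Balb/cJ. Mpc2 fell in Balb/cJ (-0.56 ± 0.19, adjusted p = 0.0559) and differed by -0.45 ± 0.19, adjusted p = 0.165 in Balb/cByJ. Pcx, which makes oxaloacetate from pyruvate, ranged from 1269 to 1857 over the libraries with overlap in both strains (-0.21 ± 0.13 and -0.12 ± 0.13).

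In the pyruvate dehydrogenase complex, 2 of 5 subunits fell in Balb/cJ (16.2% of all genes) and 3 of 5 in Balb/cByJ (4.76%). The alpha subunit of the first enzyme passed in neither. Pdhx, which tethers the third enzyme to the core, was at 5236, 6440 and 6467 in sham Balb/cJ, 4429, 4714 and 3667 in TAC Balb/cJ, 6133, 5412 and 6129 in sham Balb/cByJ and 4377, 4528 and 3358 in TAC Balb/cByJ. TAC values were below sham values in each strain, and Pdhx fell in both (-0.50 ± 0.14, adjusted p = 0.0249 in Balb/cJ, -0.54 ± 0.14, adjusted p = 0.0505 in Balb/cByJ). Pdhb, the beta subunit of the first enzyme, was at 19086, 26835 and 23908 in sham Balb/cJ, 17904, 17713 and 12612 in TAC Balb/cJ, 20753, 17622 and 20172 in sham Balb/cByJ and 14366, 15183 and 14522 in TAC Balb/cByJ. It was separate in both strains as well, and fell in Balb/cJ (-0.54 ± 0.15, adjusted p = 0.0306) with -0.41 ± 0.15, adjusted p = 0.123 in Balb/cByJ. Pdha1, the X-linked alpha subunit that carries the regulatory phosphorylation sites, was at 32651, 34856 and 36835 in sham Balb/cJ, 34173, 30390 and 27468 in TAC Balb/cJ, 35436, 32724 and 37145 in sham Balb/cByJ and 29330, 27369 and 28035 in TAC Balb/cByJ. Its TAC and sham values overlapped in Balb/cJ and were separate in Balb/cByJ, with differences of -0.19 ± 0.11 (adjusted p = 0.253) and -0.31 ± 0.11 (adjusted p = 0.113). Dlat, the acetyltransferase core, was at 11526, 12946 and 15161 in sham Balb/cJ, 11920, 11681 and 9307 in TAC Balb/cJ, 13746, 11972 and 14194 in sham Balb/cByJ and 10011, 10255 and 8789 in TAC Balb/cByJ. Dlat fell in Balb/cByJ (-0.46 ± 0.13, adjusted p = 0.0648), where TAC was wholly below sham, and in Balb/cJ the groups overlapped (-0.27 ± 0.13, adjusted p = 0.156). Dld, the dihydrolipoyl dehydrogenase that this complex shares with oxoglutarate dehydrogenase, was at 9926, 10765 and 12261 in sham Balb/cJ, 10720, 9238 and 7454 in TAC Balb/cJ, 12619, 11267 and 12954 in sham Balb/cByJ and 9239, 8459 and 8567 in TAC Balb/cByJ. It followed Dlat, with a fall in Balb/cByJ (-0.49 ± 0.13, adjusted p = 0.0564) and -0.28 ± 0.13, adjusted p = 0.142 in Balb/cJ.

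The regulators went separate ways. Pdk2, the most abundant of the 3 member kinases in these hearts, lies on chromosome 11 at 95026258 to 95041371 (minus strand, mm10). It was at 15372, 17651 and 16760 in sham Balb/cJ, 12885, 11779 and 8747 in TAC Balb/cJ, 16217, 14024 and 17735 in sham Balb/cByJ and 11149, 11912 and 11038 in TAC Balb/cByJ. In each strain the TAC libraries were below all sham libraries, and Pdk2 fell in both (-0.59 ± 0.14, adjusted p = 0.0159 in Balb/cJ, -0.49 ± 0.14, adjusted p = 0.0649 in Balb/cByJ), to 0.663 and 0.714 of sham. Pdk3, on chromosome X at 93764616 to 93832095 (minus strand), was at 74, 46 and 73 in sham Balb/cJ, 143, 149 and 214 in TAC Balb/cJ, 78, 129 and 56 in sham Balb/cByJ and 141, 154 and 149 in TAC Balb/cByJ. All TAC libraries were above all sham libraries of their strain, though sham Balb/cByJ 2, at 129, came close to the TAC values. Pdk3 rose 2.61-fold in Balb/cJ (1.38 ± 0.28, adjusted p = 0.0101) and 1.78-fold in Balb/cByJ (0.83 ± 0.28, adjusted p = 0.0991). The rise in Balb/cByJ just passed, and it did not pass without TAC Balb/cByJ 6 (adjusted p = 0.184), nor without sham Balb/cByJ 3 (a log2 difference of 0.56). It passed in 4 of the 12 fits that left out a library. In Balb/cJ it passed in all 12 fits that left out a library, with a lowest difference of 1.16.

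Pdk1 was at 8325, 7933 and 9039 in sham Balb/cJ, 7193, 6973 and 7719 in TAC Balb/cJ, 9744, 7697 and 9705 in sham Balb/cByJ and 8308, 7028 and 6209 in TAC Balb/cByJ. It did not pass in either strain (-0.21 ± 0.12, adjusted p = 0.236 and -0.34 ± 0.12, adjusted p = 0.116), although its TAC and sham values were separate in Balb/cJ. Pdp1, a catalytic subunit of the phosphatase that reactivates the complex, lies on chromosome 4 at 11958185 to 11966450 (minus strand) and was at 878, 703 and 905 in sham Balb/cJ, 952, 908 and 1069 in TAC Balb/cJ, 1051, 1134 and 1257 in sham Balb/cByJ and 1017, 1027 and 1116 in TAC Balb/cByJ. After TAC it was higher than all sham values in Balb/cJ and within the sham range or below it in Balb/cByJ, with differences of 0.24 ± 0.11, adjusted p = 0.14 and -0.12 ± 0.11, adjusted p = 0.507. Pdp2, the other catalytic subunit, was at 292, 232 and 312 in sham Balb/cJ, 290, 176 and 170 in TAC Balb/cJ, 385, 302 and 666 in sham Balb/cByJ and 341, 320 and 272 in TAC Balb/cByJ, with overlap in both strains (-0.43 ± 0.27, adjusted p = 0.27 and -0.46 ± 0.27, adjusted p = 0.289). Pdpr, the phosphatase regulatory subunit, ranged from 357 to 1336, its widest spread was within sham Balb/cJ (357 to 1330), and its differences had the largest SE of the members (0.19 ± 0.35, adjusted p = 0.723 and -0.65 ± 0.35, adjusted p = 0.253).

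**Figure D3:**
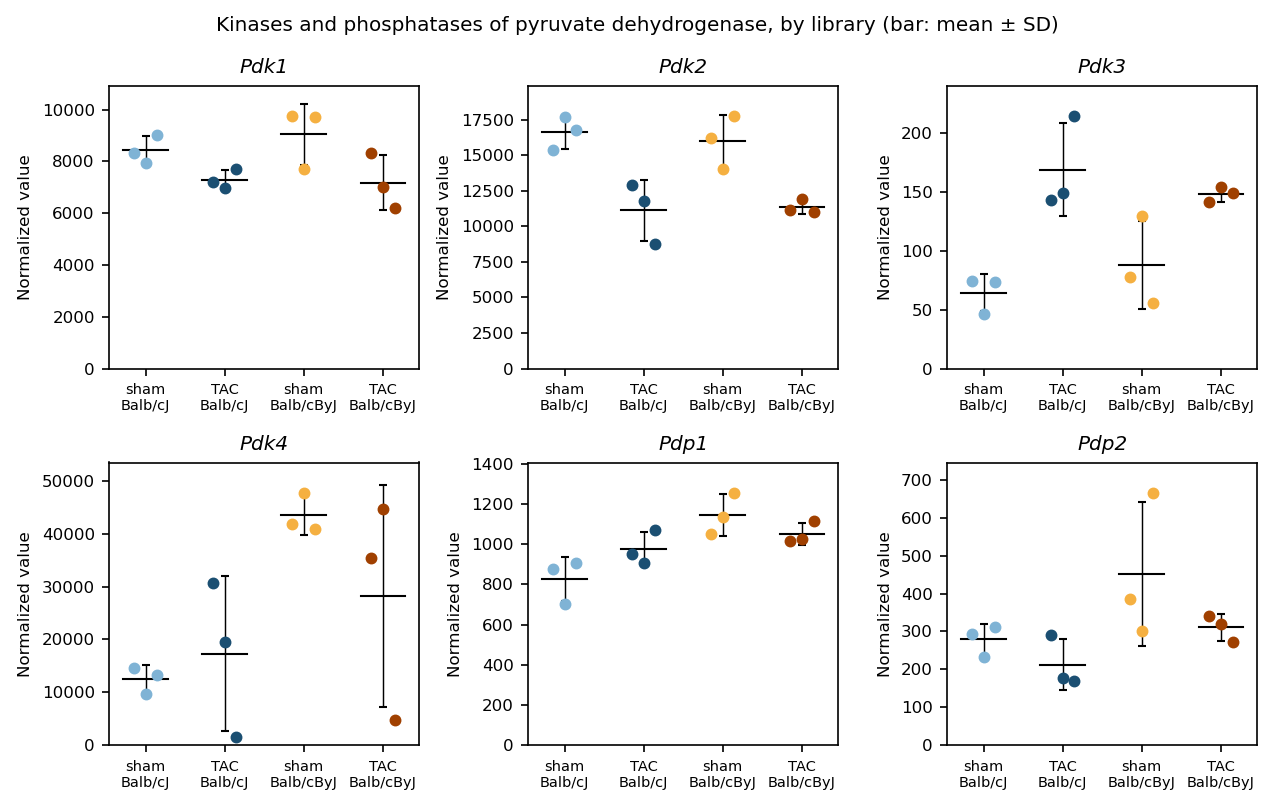
Normalized values of Pdk1, Pdk2, Pdk3, Pdk4, Pdp1 and Pdp2 in each library (points, n = 3 per group), with the mean and SD. Pdk2 falls from means of 16594 and 15992 in sham to 11137 and 11366 in TAC, Pdk3 goes from 64.3 and 87.7 to 169 and 148, and Pdk4 has a TAC library far below the others in each strain.

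Pdk4, a kinase outside the 34 members whose RNA is known to rise with fatty acid supply and fasting, was at 14612, 9608 and 13206 in sham Balb/cJ, 30649, 19501 and 1593 in TAC Balb/cJ, 41832, 47744 and 40975 in sham Balb/cByJ and 35375, 44695 and 4652 in TAC Balb/cByJ. Sham Balb/cByJ lay wholly above sham Balb/cJ, and library 6 was the lowest in both TAC groups, at 1593 and 4652. No contrast of Pdk4 passed. Its strain difference after sham was 1.82 ± 0.97, adjusted p = 0.294, and its TAC differences were -0.32 ± 0.97, adjusted p = 0.836 in Balb/cJ and -1.16 ± 0.97, adjusted p = 0.454 in Balb/cByJ.

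In the cycle from citrate to succinyl-CoA, 4 of 7 members fell in Balb/cJ and 3 of 7 in Balb/cByJ. Cs, which joins acetyl-CoA to oxaloacetate, was at 43519, 52094 and 50077 in sham Balb/cJ, 46714, 42340 and 35775 in TAC Balb/cJ, 49634, 47982 and 54454 in sham Balb/cByJ and 38645, 36797 and 39768 in TAC Balb/cByJ. It fell in Balb/cByJ (-0.40 ± 0.13, adjusted p = 0.0891), where the groups were separate, and overlapped in Balb/cJ (-0.23 ± 0.13, adjusted p = 0.226). Idh2, the mitochondrial NADP-dependent isocitrate dehydrogenase, was at 49319, 68169 and 64960 in sham Balb/cJ, 49979, 38425 and 25262 in TAC Balb/cJ, 59895, 50838 and 66243 in sham Balb/cByJ and 37612, 38184 and 43944 in TAC Balb/cByJ. Sham Balb/cJ 1 lay just below TAC Balb/cJ 4, so the groups overlapped in that strain, and they were separate in Balb/cByJ. Idh2 had the largest fall of the members in Balb/cJ (-0.72 ± 0.22, adjusted p = 0.0388), with -0.56 ± 0.22, adjusted p = 0.138 in Balb/cByJ.

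Idh3a, Idh3b and Idh3g encode the NAD-dependent isocitrate dehydrogenase, of which Idh3a is the catalytic subunit. Idh3b was at 22794, 28466 and 26716 in sham Balb/cJ, 20073, 19352 and 13792 in TAC Balb/cJ, 28088, 23712 and 27742 in sham Balb/cByJ and 18190, 20682 and 17873 in TAC Balb/cByJ, separate in both strains, and fell in both (-0.56 ± 0.15, adjusted p = 0.0241 and -0.49 ± 0.15, adjusted p = 0.0777). Idh3g was at 16221, 21745 and 19639 in sham Balb/cJ, 17060, 14640 and 12163 in TAC Balb/cJ, 20918, 18483 and 21090 in sham Balb/cByJ and 15317, 16985 and 14018 in TAC Balb/cByJ. It fell in Balb/cJ (-0.40 ± 0.14, adjusted p = 0.0674) and was -0.39 ± 0.14, adjusted p = 0.12 in Balb/cByJ. Idh3a was at 14235, 18947 and 20105 in sham Balb/cJ, 18850, 15988 and 13655 in TAC Balb/cJ, 19836, 18031 and 20824 in sham Balb/cByJ and 15156, 15490 and 14612 in TAC Balb/cByJ, passing in neither strain (-0.13 ± 0.14, adjusted p = 0.535 and -0.37 ± 0.14, adjusted p = 0.131), so the subunits of this enzyme were not called alike. Dlst, the succinyltransferase core of oxoglutarate dehydrogenase, was at 20929, 25777 and 26009 in sham Balb/cJ, 20491, 20224 and 15826 in TAC Balb/cJ, 25330, 22126 and 26858 in sham Balb/cByJ and 17457, 17893 and 16294 in TAC Balb/cByJ. It was separate in both strains and fell in both (-0.37 ± 0.13, adjusted p = 0.0662 and -0.52 ± 0.13, adjusted p = 0.0505). Ogdh, the first enzyme of that complex, ranged from 62568 to 96402 and passed in neither strain (-0.23 ± 0.15, adjusted p = 0.298 and -0.35 ± 0.15, adjusted p = 0.169).

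From succinyl-CoA to oxaloacetate, 7 of 9 members fell in Balb/cJ and 4 of 9 in Balb/cByJ. Succinyl-CoA synthetase pairs a shared alpha subunit, Suclg1, with an ADP-using beta subunit, Sucla2, or a GDP-using one, Suclg2. Suclg2 was at 4072, 4321 and 4442 in sham Balb/cJ, 3565, 3264 and 2375 in TAC Balb/cJ, 5322, 4591 and 5579 in sham Balb/cByJ and 3706, 3379 and 3358 in TAC Balb/cByJ. TAC was below sham in each strain, and sham Balb/cByJ was above sham Balb/cJ. Suclg2 fell in both strains (-0.50 ± 0.13, adjusted p = 0.0239 and -0.57 ± 0.13, adjusted p = 0.0432). Sucla2 was at 18517, 20675 and 19438 in sham Balb/cJ, 18734, 15345 and 12326 in TAC Balb/cJ, 23768, 20495 and 23653 in sham Balb/cByJ and 16943, 16584 and 15721 in TAC Balb/cByJ, overlapping in Balb/cJ by 1 TAC library, and fell in both (-0.36 ± 0.14, adjusted p = 0.0796 and -0.46 ± 0.14, adjusted p = 0.0697). Suclg1 was at 15090, 22040 and 18077 in sham Balb/cJ, 15821, 13823 and 9442 in TAC Balb/cJ, 17754, 16003 and 18385 in sham Balb/cByJ and 12451, 14373 and 12755 in TAC Balb/cByJ. It fell in Balb/cJ (-0.51 ± 0.18, adjusted p = 0.0596), and its difference in Balb/cByJ was -0.40 ± 0.18, adjusted p = 0.181.

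Succinate dehydrogenase, the cycle enzyme that is also part of the respiratory chain, is built of the flavoprotein Sdha, the iron-sulfur protein Sdhb and the membrane anchors Sdhc and Sdhd. Sdha was at 36581, 42285 and 41723 in sham Balb/cJ, 37646, 33153 and 26732 in TAC Balb/cJ, 46205, 41871 and 48351 in sham Balb/cByJ and 33462, 33530 and 33181 in TAC Balb/cByJ. The 3 TAC Balb/cByJ values lay close together (SD 185, n = 3) and below all sham values, and Sdha fell in that strain (-0.44 ± 0.13, adjusted p = 0.0748), with -0.32 ± 0.13, adjusted p = 0.109 in Balb/cJ. Sdhb was at 29462, 41095 and 35143 in sham Balb/cJ, 27956, 25874 and 18017 in TAC Balb/cJ, 34610, 29327 and 34899 in sham Balb/cByJ and 21786, 26493 and 22074 in TAC Balb/cByJ. It was separate in both strains and fell in Balb/cJ (-0.57 ± 0.18, adjusted p = 0.0399), with -0.49 ± 0.18, adjusted p = 0.11 in Balb/cByJ. Sdhc was at 14225, 19725 and 17830 in sham Balb/cJ, 15379, 13438 and 10291 in TAC Balb/cJ, 17027, 15114 and 17435 in sham Balb/cByJ and 12410, 13014 and 12289 in TAC Balb/cByJ, and fell in Balb/cJ (-0.41 ± 0.15, adjusted p = 0.0701) but missed the threshold in Balb/cByJ (-0.39 ± 0.15, adjusted p = 0.129). Sdhd ranged from 12361 to 19865 and passed in neither (-0.25 ± 0.14, adjusted p = 0.223 and -0.39 ± 0.14, adjusted p = 0.121).

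Fh1, fumarate hydratase, was at 15724, 19293 and 17614 in sham Balb/cJ, 15037, 14240 and 10690 in TAC Balb/cJ, 19306, 17372 and 20093 in sham Balb/cByJ and 13106, 14736 and 13577 in TAC Balb/cByJ. It was separate in both strains and fell in both (-0.41 ± 0.13, adjusted p = 0.048 and -0.45 ± 0.13, adjusted p = 0.069). Mdh2, the matrix malate dehydrogenase, was at 43074, 56876 and 48682 in sham Balb/cJ, 41967, 39834 and 30661 in TAC Balb/cJ, 45117, 41420 and 47261 in sham Balb/cByJ and 32806, 37382 and 34532 in TAC Balb/cByJ. It was also separate in both, fell in Balb/cJ (-0.41 ± 0.15, adjusted p = 0.0689) and was -0.35 ± 0.15, adjusted p = 0.156 in Balb/cByJ.

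In the malate-aspartate shuttle, Slc25a11 exchanges malate for oxoglutarate across the inner membrane. It was at 18469, 25578 and 23908 in sham Balb/cJ, 19449, 17132 and 13715 in TAC Balb/cJ, 25043, 21289 and 25141 in sham Balb/cByJ and 16613, 17323 and 15373 in TAC Balb/cByJ. TAC was wholly below sham in Balb/cByJ, and in Balb/cJ sham 1 lay below TAC 4. Slc25a11 fell in both strains (-0.44 ± 0.15, adjusted p = 0.0584 and -0.53 ± 0.15, adjusted p = 0.064). Mdh1, the cytosolic malate dehydrogenase, was at 76256, 105536 and 96081 in sham Balb/cJ, 78838, 71014 and 54694 in TAC Balb/cJ, 86596, 78795 and 91038 in sham Balb/cByJ and 58954, 66532 and 62806 in TAC Balb/cByJ. It fell in Balb/cJ (-0.45 ± 0.17, adjusted p = 0.0835), with -0.44 ± 0.17, adjusted p = 0.132 in Balb/cByJ. Got1, the cytosolic aspartate aminotransferase, was at 22133, 34625 and 30756 in sham Balb/cJ, 25394, 20807 and 16314 in TAC Balb/cJ, 22307, 20284 and 23246 in sham Balb/cByJ and 16286, 16855 and 17942 in TAC Balb/cByJ. In Balb/cByJ its TAC values stayed below sham, and in Balb/cJ sham 1 lay among the TAC values. Got1 fell in Balb/cJ (-0.48 ± 0.18, adjusted p = 0.0695), with -0.36 ± 0.18, adjusted p = 0.208 in Balb/cByJ. Got2, its mitochondrial partner, was at 17183, 20756 and 20882 in sham Balb/cJ, 21652, 17766 and 14704 in TAC Balb/cJ, 18858, 17652 and 20970 in sham Balb/cByJ and 15767, 15638 and 15864 in TAC Balb/cByJ, and passed in neither strain (-0.13 ± 0.14, adjusted p = 0.515 and -0.28 ± 0.14, adjusted p = 0.215).

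Ratios of 2 genes within a library were taken as differences of log2(value + 1), which are little affected by how libraries are scaled except through the added 1 at low values such as those of Pdk3. Percentages below are of the values themselves. They were computed for 12 pairs (11 of members and Pdk4/Pdk2) in 4 comparisons, 48 in all. An exact two-sided permutation test of 3 against 3 cannot go below p = 0.1, and the lowest Benjamini-Hochberg value over the 48 was 0.282, so none passed and the ratios are a description. Libraries did not overlap in 17 of the 48: 7 for TAC in Balb/cJ, 5 for TAC in Balb/cByJ, 5 between the sham groups and 0 between the TAC groups. Without TAC Balb/cByJ 6 it was 6 for TAC in Balb/cByJ and 3 between the TAC groups. How often ratios of other gene pairs separate was not counted, so these counts have no background beside them. Among the TAC comparisons the largest shift was in the kinases. Pdk3 RNA was 0.481, 0.261 and 0.436% of Pdk2 RNA in sham Balb/cJ and 1.11, 1.26 and 2.45% in TAC Balb/cJ. In Balb/cByJ it was 0.481, 0.92 and 0.316% in sham and 1.26, 1.29 and 1.35% in TAC. The mean log2 ratio was higher after TAC by 1.98 in Balb/cJ and 1.32 in Balb/cByJ (exact p = 0.1 for both), yet Pdk3 stayed a small fraction of Pdk2 in every library. Pdk1/Pdk2 was higher after TAC in Balb/cJ by 0.38 without overlap, and by 0.15 with overlap in Balb/cByJ.

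Some paired subunits of an enzyme separated in their ratio in Balb/cJ and others in Balb/cByJ. On the log2 scale Pdha1/Pdhb was higher after TAC by 0.35, Idh3a/Idh3b by 0.43 and Sdha/Sdhb by 0.25 in Balb/cJ, each without overlap (exact p = 0.1). In Balb/cByJ these ratios differed by 0.09, 0.11 and 0.05, all with overlap. Idh3g/Idh3b and Mpc1/Mpc2 separated in Balb/cByJ instead: they were higher after TAC by 0.17 and 0.16 in Balb/cJ with overlap, and by 0.10 and 0.11 in Balb/cByJ without overlap. Got1/Got2 was lower after TAC in Balb/cJ by 0.35, with log2 ratios of 0.37, 0.74 and 0.56 in sham and 0.23, 0.23 and 0.15 in TAC. Sham Balb/cByJ already had Got1/Got2 at 0.24, 0.20 and 0.15, below all sham Balb/cJ libraries, and Sdha/Sdhb at 0.42, 0.51 and 0.47, above them (0.31, 0.04 and 0.25). Mdh1/Mdh2 and Sucla2/Suclg2 moved little, by -0.04 and 0.14 in Balb/cJ and by -0.09 and 0.10 in Balb/cByJ, and in Balb/cByJ these small shifts did not overlap.

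**Figure D4:**
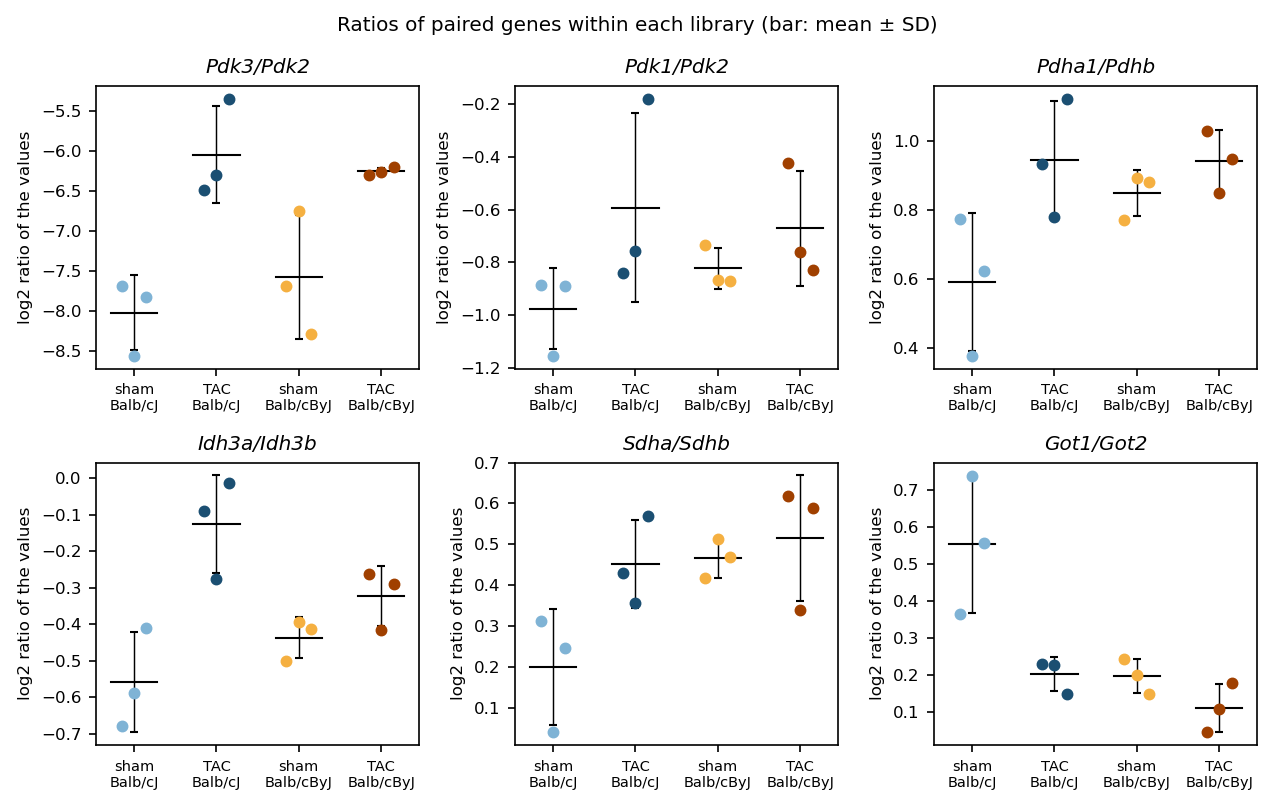
log2 ratio of the values of 2 genes in the same library, for 6 pairs, with 3 libraries per group (points), the mean and SD. Pdk3/Pdk2 has means of -8.02 and -7.57 in sham and -6.04 and -6.25 in TAC; for Pdha1/Pdhb, Idh3a/Idh3b and Sdha/Sdhb sham Balb/cJ lies apart from TAC Balb/cJ, and the Balb/cByJ groups overlap.

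Transcript length also differed within these 3 pairs. Over all genes tested in Balb/cJ, the median log2 difference was -0.20 for 4282 genes with under 2000 bases of exon and 0.06 for the 9756 longer genes. For the members these medians were -0.44 (14 genes) and -0.25 (20 genes). In Balb/cByJ they were -0.09 and 0.03 over all genes, and -0.43 and -0.42 for the members. Pdhb, Idh3b and Sdhb, with 1485, 1520 and 1074 bases, are each shorter than their partner (2761, 2404 and 2859 bases). In Balb/cJ the ratio also moved toward the longer gene in Pdk1/Pdk2, Pdk4/Pdk2, Pdp1/Pdp2, Mpc1/Mpc2 and Got1/Got2. It moved toward the shorter gene in Pdk3/Pdk2 (2000 and 2263 bases) and Idh3g/Idh3b (1331 and 1520). The same held for Sucla2/Suclg2 (2108 and 2279) and Mdh1/Mdh2 (1958 and 1282). The part of length in the subunit ratios was not tested.

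Few members passed between the strains. After sham, 1 member, Pdp1, was higher in Balb/cByJ and 0 were lower by limma (4.27% and 4.1% of all genes, 8.37% in either direction; 4 members had an unadjusted p under 0.05: Got1, Mpc1, Pdp1 and Pdp2). Pdp1 was at 878, 703 and 905 in sham Balb/cJ and at 1051, 1134 and 1257 in sham Balb/cByJ, without overlap, a difference of 0.47 ± 0.11, adjusted p = 0.0386. This did not pass without sham Balb/cJ 2 (a log2 difference of 0.36), without sham Balb/cByJ 2 (0.48) or without sham Balb/cByJ 3 (0.41). Pdp2 was 0.62 ± 0.27, adjusted p = 0.204, Got1 -0.39 ± 0.18, adjusted p = 0.223 and Mpc1 -0.33 ± 0.13, adjusted p = 0.155. Pdp1 and Suclg2 lay wholly higher in sham Balb/cByJ and Mpc1 wholly lower, where 13.4% and 13.8% of all genes did. The members' median difference was 0.01, with a range from -0.39 to 0.70 and SE from 0.113 to 0.353. Differences well above their SE, such as those of Pdp2, Got1 and Mpc1, did not pass, so differences of that size could be missed.

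After TAC, 0 of the 34 members passed between the strains by limma, as did 0.00712% of all genes, and 1 member (Pdp2, 0.59 ± 0.27, adjusted p = 0.506) had an unadjusted p under 0.05. All 34 overlapped between the TAC groups, where 6.91% of all genes lay wholly higher in Balb/cByJ and 7.54% wholly lower. Differences ran from -0.27 to 0.59 with a median of -0.04. Without TAC Balb/cByJ 6, 0 members passed by limma (1 unadjusted) and 0.534% of all genes did, and 1 member lay wholly higher in Balb/cByJ (12.9% of all genes) and 0 wholly lower (12.8%). The interaction (the Balb/cByJ TAC difference less the Balb/cJ one) passed for 0 members by limma and 0.00712% of all genes. It ran from -0.85 for Pdpr to 0.16 for Idh2 with a median of -0.06, and the lowest unadjusted p belonged to Pdp1 (-0.36 ± 0.16, adjusted p = 0.723).

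The summed level of the 34 members was set beside other cell types. In Balb/cJ the members made up 2.39 to 2.63% of the library sum after sham surgery and 2.00 to 2.47% after TAC. In Balb/cByJ they made up 2.57 to 2.73% after sham surgery and 2.17 to 2.24% after TAC. The 8 cardiomyocyte markers had sums of 2132257 to 2833603, 1454249 to 2004425, 1741544 to 2266143 and 1527626 to 1831775 for sham and TAC Balb/cJ, then sham and TAC Balb/cByJ, separate in Balb/cJ and overlapping in Balb/cByJ. Of the markers, 3 of 8 fell in Balb/cJ (Myl2, Myl3 and Tnni3) and 0 in Balb/cByJ by limma (0 at an unadjusted p under 0.05), with medians of -0.41 and -0.34, and Ryr2 was at 0.10 in Balb/cJ. Per 100 of cardiomyocyte marker value, the members went from 32.3 ± 1.36 after sham to 34.4 ± 1.21 after TAC for Balb/cJ, and from 39.5 ± 1.89 to 36.1 ± 3.97 for Balb/cByJ (SD, n = 3). Relative to these markers, 3 of which fell themselves, the members were not lower after TAC in Balb/cJ. In Balb/cByJ the groups overlapped, with 40.28, 40.95 and 37.39 in sham and 38.34, 38.4 and 31.5 in TAC. The TAC values of 38.34 and 38.4 lay within the sham range. The lowest, 31.5, was that of TAC Balb/cByJ 6, the library whose Zhx2 value went against its label. The ratio of 31.5 lay in the range of the Balb/cJ libraries (30.85 to 35.49). What moved this ratio was not tested.

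**Figure D5:**
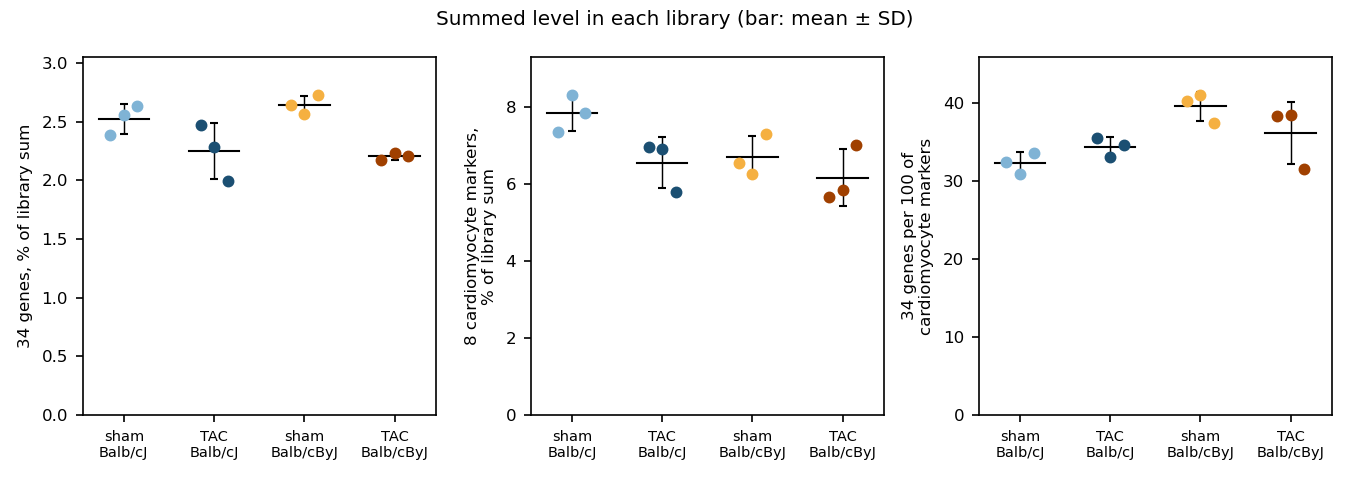
Summed value of the 34 members and of the 8 cardiomyocyte markers as a percentage of the library sum, and the members per 100 of marker value, in each library (points) with mean and SD. Both percentages are lower on average after TAC; the members per 100 of markers run from 30.9 to 35.5 in Balb/cJ and from 31.5 to 40.95 in Balb/cByJ.

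Markers of fibroblasts and macrophages were higher after TAC. All 7 fibroblast markers rose in both strains (sums of 38593 to 58596 in sham Balb/cJ and 97191 to 215770 in TAC Balb/cJ, 41402 to 61702 and 105305 to 148609 in Balb/cByJ). The 6 macrophage markers rose in Balb/cJ and 5 of 6 in Balb/cByJ (6096 to 8896 and 14705 to 16243, then 6672 to 12197 and 14829 to 20041). Of 5 atrial markers 5 rose in Balb/cJ and 0 in Balb/cByJ by limma (1 at an unadjusted p under 0.05), with sums of 8540 to 18595 and 39218 to 150568, then 3670 to 107420 and 22114 to 225808. The atrial sums of sham Balb/cJ were mostly Nppa (12232, 8401 and 18449), and Sln and Bmp10 were at 0 in some of these libraries. Of the 6 adipocyte markers, 5 were tested. In Balb/cJ 4 rose (Adipoq, Cfd, Cidec and Plin1) and 1, Fabp4, fell, and in Balb/cByJ 3 rose (Adipoq, Cfd and Cidec). Their sums were 18612 to 25220 and 10045 to 18074, then 16499 to 18144 and 15794 to 20791, and Lep was at 0 throughout sham Balb/cJ. These sums were mostly Fabp4 (25195, 23099 and 18588 in sham Balb/cJ, 14502, 16344 and 9222 in TAC Balb/cJ). They therefore do not show the markers that rose, such as Adipoq (4, 2 and 3, then 33, 208 and 108). Epicardial sums were 155 to 211 and 306 to 746, then 317 to 402 and 463 to 917 (4 of 5 rose in Balb/cJ), and endothelial sums 18975 to 30093 and 17045 to 18610, then 19763 to 22232 and 19943 to 21129 (4 of 6 fell in Balb/cJ). In Balb/cByJ 0 epicardial and 0 endothelial markers passed by limma (1 and 0 unadjusted). Between the sham groups, 3 atrial and 3 epicardial markers were higher in Balb/cByJ and 1 endothelial marker was lower. Without TAC Balb/cByJ 6, 7 fibroblast and 5 macrophage markers still rose in Balb/cByJ, and 0 adipocyte markers passed by limma (4 unadjusted). A covariate of the mean log2 level of Myl7, Sln and Myl4 could not tell the atrial share from TAC in Balb/cJ, since Myl7 was at 6 to 13 in sham and 2381 to 15126 in TAC, and 0 of all genes passed there with it. In Balb/cByJ 3 members passed with it, where 4.94% of all genes did. The part of these cell types in the members' differences was not tested.

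Other genes of the pathway were counted from a list of 29, all of them tested. In Balb/cJ 10 fell and 1 rose, where 16.2% of all genes were lower and 15.3% higher. In Balb/cByJ 6 fell and 2 rose, where 4.76% were lower and 7.81% higher. The medians of the 29 were -0.25 and -0.32. Without TAC Balb/cByJ 6, 1 fell (Sdhaf3) and 1 rose (Slc25a1) in Balb/cByJ, where 0.926% of all genes were lower and 3.97% higher. The assembly factors of succinate dehydrogenase fell alongside its subunits: Sdhaf2 (-0.42 ± 0.10 and -0.40 ± 0.10) and Sdhaf3 (-0.73 ± 0.15 and -0.53 ± 0.15) fell in both strains, and Sdhaf4 (-0.73 ± 0.13) and Sdhaf1 (-0.49 ± 0.12) in Balb/cJ. Sirt3, the mitochondrial deacetylase (-0.59 ± 0.13 and -0.47 ± 0.13), and Slc25a13, an aspartate-glutamate carrier of the shuttle (-0.35 ± 0.11 and -0.39 ± 0.11), fell in both. Ogdhl (-0.91 ± 0.29), Ldhb, the heart form of lactate dehydrogenase (-0.81 ± 0.18), Gpt2 (-0.57 ± 0.18) and Me3 (-0.31 ± 0.12) fell in Balb/cJ, and Lipt1 (-0.39 ± 0.13) and Glud1 (-0.29 ± 0.10) in Balb/cByJ. These calls in a single strain do not show that the strains differ. In Balb/cByJ, TAC libraries also lay below all sham libraries at Sdhaf1, Sdhaf4, Ogdhl, Ldhb and Me3 (18.8% of all genes), and overlapped at Gpt2. In Balb/cJ, TAC libraries lay below all sham libraries at Lipt1 (18.1% of all genes) and overlapped at Glud1. The mitochondrial citrate exporter Slc25a1 rose in both strains (0.77 ± 0.23, adjusted p = 0.034 and 0.90 ± 0.23, adjusted p = 0.0505). It was at 253, 252 and 207 in sham Balb/cJ, 307, 431 and 498 in TAC Balb/cJ, 230, 269 and 239 in sham Balb/cByJ and 357, 677 and 400 in TAC Balb/cByJ, with TAC above sham in each strain. Acly, which splits the exported citrate in the cytosol, rose in Balb/cByJ (0.57 ± 0.17, adjusted p = 0.0694) and was 0.10 ± 0.17, adjusted p = 0.716 in Balb/cJ.

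In the authors' deposited table, 14 of 34 members were lower and 1 higher after TAC in Balb/cJ at an adjusted p under 0.1, where 9.79% and 11.7% of its genes with a p-value were. In Balb/cByJ the authors' deposited table had 30 lower and 1 higher, where 9.97% and 10.5% were. The higher gene was Pdk3 in both, with shrunken log2 fold changes of 1.17 and 0.57 in the authors' deposited table. That table thus called more members in Balb/cByJ, as did the fit with only the groups compared.

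Libraries were made with a stranded kit per the labels, but the strand setting of the counting is not given in the sources used here, so reads of overlapping genes may be mixed. Exons of Sdhd overlap an unnamed gene on the other strand over 1167 bases, those of Pdha1 overlap Map3k15 over 603, of Suclg2 an unnamed gene over 651, of Pdpr 9430091E24Rik over 185 and of Idh3b Nop56 over 5. The mean values of these partners were 23.8, 52.9, 2.92, 13.0 and 627 per library, far below those of Sdhd, Pdha1, Suclg2 and Idh3b.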

How the data were processed

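Heart RNA was sequenced in 12 libraries, 3 for each of 4 groups taken from the strain and surgery labels. Per the submitters' processing notes, reads were handled with STAR, Subread, featureCounts and DESeq2 on mm10; the sources used here give no versions, settings or strand. The authors deposited per-gene normalized values rounded to whole numbers, treated here as a score and not as raw counts, so no count test was run and the depth behind a value is unknown. The deposited table also holds the authors' shrunken log2 fold changes and adjusted p-values, used only where named. TAC columns are numbered 4 to 6 and TAC sample titles 1 to 3, so these columns were mapped to their group only.

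Values were tested as log2(value + 1) with limma 3.58.1 in R 4.3.3 (empirical Bayes with trend), a mean per group over 12 libraries, on 14038 genes with a mean of at least 10, of 20278 with any value above 0. P-values were Benjamini-Hochberg adjusted over all 14038 genes, and a gene passed under 0.1. The fit was checked on simulated data. Ratios used exact two-sided permutation tests in scipy 1.17.1. Tables and figures used Python 3.11.15, numpy 2.4.6, pandas 2.3.3 and matplotlib 3.10.9. Fold changes on the log2(value + 1) scale understate changes of low genes.

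Members, lists and motifs were chosen with earlier results of these data known. Every member called in a contrast and every member of a ratio pair is named with its values. Alternatives were pseudocounts of 0.5 and 5, no filter, other scalings, no trend, only the groups compared, an atrial covariate, a replicate block, a threshold of 0.05 and each library left out. Same-numbered libraries did not deviate together, so numbers were not taken as pairs.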

Additional observations from a re-analysis of the deposited data

Results flagged for a closer look

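Pdp1, a catalytic subunit of pyruvate dehydrogenase phosphatase, was singled out because its difference after TAC had opposite signs in the strains, with every TAC library above every sham library in Balb/cJ and a lower mean after TAC in Balb/cByJ. The interaction was -0.362 on the log2(value + 1) scale (SE 0.16), with an adjusted p of 0.723 by limma, so the difference between the strains did not pass.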

How the results depend on the processing

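No called member changed sign under the alternatives run. Of the members' medians, those of the strain comparisons and the interaction, all near 0, changed sign: the sham strain median of 0.01 ranged from -0.06 to 0.19, the TAC strain median of -0.04 from -0.18 to 0.05, and the interaction median of -0.06 from -0.21 to 0.05. The 20 members called after TAC in Balb/cJ (31.5% of all genes) became 10 at an adjusted p under 0.05, 10 with libraries rescaled to the same total (34.4% of all genes), 6 with only the groups compared (21.1%) and 5 to 24 with a library left out (15.4 to 35.9%). They became 0 with the atrial covariate, as did all genes, so that fit says nothing about the members. The 13 called in Balb/cByJ (12.6%) became 1 at the stricter threshold, 29 with only the groups compared (20.3%), 3 with the covariate (4.94%) and 0 to 27 with a library left out (0.0427 to 20.1%). The share of all genes at an adjusted p under 0.05 was not counted. Whether the drops at that threshold are particular to the members therefore cannot be told. The 1 member called between the sham groups (8.37%) became 2 with rescaling (Pdp1 and Suclg2, 6.92%) and 0 with the covariate (0.249%). It became 0 to 3 with a library left out (2.29 to 11.8%). Without sham Balb/cJ 1, 2 members were called lower (6.36% of all genes) and 1 higher (5.08%). The counts between the TAC groups and for the interaction were 0 in each alternative run. The 17 ratios without overlap became 18 to 23 with a library left out, where smaller groups separate more easily. The cause was otherwise not tested.

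Replicate numbers are shared between strains. Correlations of same-numbered deviations were -0.21, -0.07 and 0.17 in sham and 0.06, 0.10 and -0.05 in TAC. With the replicate block, 2 members were called between the sham groups (Pdp1 and Pdp2; 7.01% of all genes) and 0 between the TAC groups.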
